A study of Mus musculus with 12 samples.

Results

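The data described here are the tibia shaft transcriptomes of mice that carried a dominant collagen mutation and lacked the *Sost* gene, set against wild-type mice. All 8 mice of the groups Jrt;Sost-ko and WT were taken, by their genotype labels, of 12 mice in the series. The 4 Jrt;Sost-ko mice had the genotype Col1a1Jrt/+ Sost-/-, and the 4 WT mice carried neither allele. All were male and aged 8 weeks. The Jrt allele alters a splice donor site of *Col1a1*, which leads to loss of an exon from the mRNA, and serves as a model of severe dominant osteogenesis imperfecta. It came from FVB mice and the *Sost* deletion from C57BL6 mice, and the Jrt;Sost-ko colony had a mixed background founded on a recombination between both loci on chromosome 11. The WT mice came from a parallel colony that was also of mixed FVB and C57BL6 background. Genotype and colony therefore cannot be told apart in any value below. Another 4 mice, labelled Col1a1Jrt/+ with no *Sost* genotype given and called Jrt;Sost-het by the study, whose methods give them as Sost+/-, enter the scaling of CPM, 1 alternative fit and levels set beside those of the other groups.

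Sclerostin, the product of *Sost*, is a secreted protein made mainly by osteocytes, the cells embedded in bone matrix. It binds the Wnt co-receptors Lrp5 and Lrp6 and thereby holds back Wnt signalling and bone formation by osteoblasts. Type I collagen, assembled from the chains encoded by *Col1a1* and *Col1a2*, is the main protein of bone matrix, and dominant variants in either gene cause bone fragility.

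The libraries held between 28255411 and 37370099 counts on genes in Jrt;Sost-ko mice and between 28737276 and 44418863 in WT mice. Expression is given as CPM, counts scaled to a common library size with TMM factors, and fold changes are Jrt;Sost-ko minus WT on the log2 scale from edgeR's quasi-likelihood test. Of 17155 genes with enough counts, 1 gene (0.00583%) had a Benjamini–Hochberg adjusted p under 0.05. This gene was *Sost*. At an unadjusted p under 0.05 stood 668 genes (3.89%), of which 388 (2.26% of all tested) were higher and 280 (1.63%) were lower in Jrt;Sost-ko mice. DESeq2 on the same counts called 18 of 21062 genes (0.0855%), 12 higher and 6 lower. The median log2 fold change over all genes tested was -0.0030, and 8418 genes (49.1%) had a positive value. In 222 genes (1.29%) every Jrt;Sost-ko mouse was above every WT mouse, and in 190 genes (1.11%) every Jrt;Sost-ko mouse was below. With 4 mice against 4, an exact two-sided permutation test over the 70 arrangements cannot give a p below 0.0286.

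The shafts were flushed of marrow but were not pure bone. Summed over the 22 skeletal muscle genes, the level was 11604, 2556, 15041 and 59.9 CPM in Jrt;Sost-ko mice 1 to 4 and 3223, 293, 15266 and 36712 CPM in WT mice 1 to 4. The 17 epidermis genes summed to 18.3, 18.9, 21.7 and 17.8 CPM in Jrt;Sost-ko mice and 21.2, 18.1, 199 and 798 CPM in WT mice. WT mice 3 and 4 thus held epidermal transcripts at levels that the other 6 mice did not reach, and medians are also given without them. The keratin gene *Krt14* was at 0.0249, 0, 11.1 and 84.1 CPM in the WT mice and at or below 0.134 CPM in every Jrt;Sost-ko mouse. In a principal component analysis of the 8 mice, component 1 took 59.9% of the variance and both groups spanned most of its range. Component 2 took 10.6%, and on it all WT mice (scores 12.9 to 18.3) lay above all Jrt;Sost-ko mice (-33.2 to 0.4145). In bulk RNA a lower level from fewer cells of a type cannot be told apart from less RNA per cell.

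*Sost* mRNA was almost lost from the tibia of Jrt;Sost-ko mice. The libraries held 16, 43, 19 and 10 *Sost* counts in Jrt;Sost-ko mice 1 to 4 and 2031, 2115, 2764 and 1030 in WT mice 1 to 4. In CPM these were 0.571, 1.28, 0.508 and 0.326 against 50.7, 72.3, 62.2 and 28.5. The highest Jrt;Sost-ko mouse lay far under the lowest WT mouse, yet none of the knockout libraries was at 0. The mean was 0.671 ± 0.418 CPM (SD, n = 4) against 53.4 ± 18.8 CPM (SD, n = 4), so that 1.26% of the WT level remained. *Sost* fell by 6.29 on the log2 scale (standard error 0.466, 95% interval -7.35 to -5.22, edgeR adjusted p = 0.00895). By the exact permutation test the two-sided p was 0.0286, the smallest possible. Leaving out Jrt;Sost-ko mouse 1, 3 or 4 or WT mouse 1 or 3 raised the edgeR adjusted p of *Sost* above 0.05, to between 0.057 and 0.117, with log2 fold changes between -6.32 and -6.07. In Jrt;Sost-het mice *Sost* stood at 27.97, 34.6, 70.4 and 26.8 CPM, a range that overlapped that of WT mice. Their heterozygous *Sost* genotype comes from the study's methods and not from the sample labels.

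*Sost* (ENSMUSG00000001494) is a protein-coding gene on the minus strand of chr11:101962458-101967015 in GRCm38. The 250 bases before its RefSeq start are shown as the promoter of the gene that was called, and those before *Bglap*, the osteocalcin gene, as the promoter of the osteoblast gene with the smallest p below. Both are written 5′ to 3′ on the minus strand of GRCm38.p6, at chr11:101967016-101967265 and chr3:88384467-88384716. Capitals in the *Bglap* sequence mark the letters ACCACA, the core recognised by Runx factors, and TATAAA, the TATA box, each searched on both strands. They begin 132 and 27 bases before the start of *Bglap*. The *Sost* sequence was not marked for these letters, so that its lack of capitals is no result.
Sost: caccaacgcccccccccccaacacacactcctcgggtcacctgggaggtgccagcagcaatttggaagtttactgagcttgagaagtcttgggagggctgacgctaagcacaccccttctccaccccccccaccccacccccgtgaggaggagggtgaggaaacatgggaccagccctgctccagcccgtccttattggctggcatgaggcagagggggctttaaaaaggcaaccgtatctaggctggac
Bglap: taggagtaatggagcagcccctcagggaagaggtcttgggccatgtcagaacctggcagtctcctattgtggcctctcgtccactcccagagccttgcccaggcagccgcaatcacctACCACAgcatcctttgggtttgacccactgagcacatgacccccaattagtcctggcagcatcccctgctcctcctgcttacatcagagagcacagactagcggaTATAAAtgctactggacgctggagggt
Of 32851 RefSeq promoter windows, 14% held ACCACA and 12.4% held TATAAA. RefSeq gave 14 windows for 10 of the osteoblast genes listed, some with several starts, and among these windows the numbers were 4 (28.6%) and 5 (35.7%). These are matches of letters and not binding sites.

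Both chains of type I collagen had higher means in Jrt;Sost-ko than in WT tibia, but the groups overlapped and neither gene passed the test. *Col1a1* (chr11:94936224-94953042, plus strand) was at 21863, 26862, 30052 and 16809 CPM in Jrt;Sost-ko mice and 11698, 8934, 15202 and 24175 CPM in WT mice. Jrt;Sost-ko mice 1 and 4 lay within the WT range, and WT mouse 4 lay within the Jrt;Sost-ko range. The log2 fold change was 0.68 (standard error 0.337, 95% interval -0.094 to 1.45, edgeR adjusted p = 0.9996). *Col1a2* was at 28489, 34104, 36759 and 23066 CPM against 16161, 12495, 20887 and 30415 CPM, and its log2 fold change was 0.62 (SE 0.305, 95% interval -0.078 to 1.32). The counts do not separate mRNA of the Jrt allele from that of the normal allele.

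Among the 9 fibrillar collagen genes 8 had a positive log2 fold change, with a median of 0.46 and none at an unadjusted p under 0.05. *Col5a2* and *Col11a1*, whose chains join the fibrils of type I and type II collagen, had log2 fold changes of 0.52 and 0.45. Of the 35 genes for collagen modification, folding and processing, 31 were positive with a median of 0.26. Beside 3.89% of all genes tested, 3 of the 35 had an unadjusted p under 0.05. These were *Plod2* (log2 fold change 0.82), a lysyl hydroxylase of the collagen telopeptides, *P4ha1* (0.59), a prolyl hydroxylase subunit, and *Colgalt1* (0.17), a collagen galactosyltransferase. *Plod2* was at 184, 206, 184 and 132 CPM in Jrt;Sost-ko mice and 72.2, 58.1, 123 and 146 CPM in WT mice. Only the lowest Jrt;Sost-ko mouse and the highest WT mouse overlapped. The cross-linking enzyme *Lox* had a log2 fold change of 0.64. The related galactosyltransferase *Colgalt2* went the other way in its mean, with 4.14, 2.14, 5.67 and 3.39 CPM against 6.29, 2.699, 8.35 and 10.7 CPM and a log2 fold change of -0.87 (95% interval -1.85 to 0.12). No member of either list had an edgeR adjusted p under 0.9996.

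**Figure D1:**
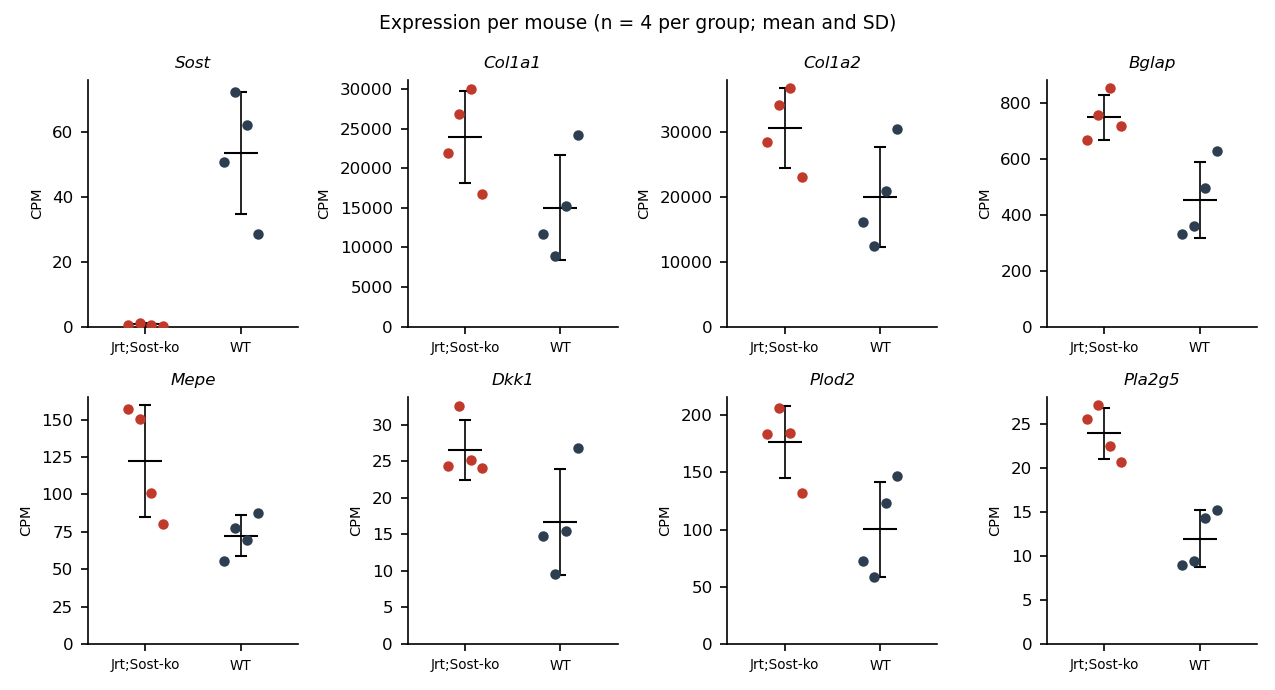
CPM of 8 genes in each Jrt;Sost-ko and WT mouse, with the group mean and SD (n = 4 per group, linear axes from 0). *Sost* separates the groups, *Bglap* and *Pla2g5* do not overlap, and the highest WT mouse reaches the Jrt;Sost-ko range for *Col1a1*, *Col1a2*, *Mepe*, *Dkk1* and *Plod2*.

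Genes of the osteoblast were on balance higher in Jrt;Sost-ko mice, without any passing the test. Of 14 osteoblast genes, 13 had a positive log2 fold change (median 0.38). An unadjusted p under 0.05 was found for 3 of the 14, beside 3.89% of all genes tested. *Bglap*, which encodes osteocalcin, was at 667, 757, 855 and 717 CPM in Jrt;Sost-ko mice and 329.8, 361, 495 and 627 CPM in WT mice. The groups did not overlap, as in 1.29% of all genes tested with Jrt;Sost-ko higher, and *Bglap* had the smallest p of its list. The log2 fold change was 0.73 (standard error 0.207, edgeR adjusted p = 0.9996). *Bglap2* had 0.63. The *Bglap* genes are near-identical copies, so that reads may be split between them and both values are uncertain. *Omd*, a small proteoglycan of bone matrix, had 0.58. *Runx2*, the master regulator of the lineage, had 0.19 and *Alpl*, the alkaline phosphatase that frees phosphate for mineral, had 0.25, both with overlapping groups.

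Osteocyte genes gave a like picture. Of 10 genes, *Sost* not among them, 8 were positive (median 0.42). *Mepe* and *Dkk1* had an unadjusted p under 0.05, as had 3.89% of all genes tested. *Mepe*, a matrix phosphoglycoprotein of osteocytes, was at 157, 151, 101 and 80.4 CPM in Jrt;Sost-ko mice and 55.2, 77.7, 69.7 and 87.5 CPM in WT mice. Jrt;Sost-ko mice 1, 2 and 3 exceeded every WT mouse, and mouse 4 did not. *Dmp1* and *Phex*, which act in phosphate control and mineralization, had log2 fold changes of 0.67 and 0.43, and *Pdpn*, an early osteocyte gene, had 0.52. The 15 mineralization genes, which share members with both lists, had a median of 0.28 with 11 positive, and leaving out a mouse gave medians from 0.13 without WT mouse 2 to 0.55 without WT mouse 4. *Phospho1*, a phosphatase of matrix vesicles, had 0.33.

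The bone-forming lists depended on the mice taken. With each mouse left out in turn the medians went from 0.24 without WT mouse 2 to 0.64 without WT mouse 4 for osteoblast, from 0.23 without WT mouse 2 to 0.72 without WT mouse 4 for osteocyte, from 0.29 without WT mouse 2 to 0.79 without WT mouse 4 for fibrillar collagen and from 0.14 without WT mouse 2 to 0.53 without WT mouse 4 for collagen processing genes. Without WT mice 3 and 4 the medians were 0.85 for osteoblast, 0.88 for osteocyte, 1.02 for fibrillar collagen and 0.68 for collagen processing genes. Summed osteoblast genes stood at 13113, 15355, 14651 and 10433 CPM in Jrt;Sost-ko mice 1 to 4 and 8636, 6173, 10489 and 15024 CPM in WT mice 1 to 4. WT mice 3 and 4 had the highest WT sums for osteoblast and also for epidermis and muscle genes. With the muscle genes as a covariate the medians were 0.59 for osteoblast, 0.64 for osteocyte, 0.71 for fibrillar collagen and 0.42 for collagen processing genes. The part of epidermal tissue in the bone gene values was not tested apart from leaving out WT mice 3 and 4.

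Osteoclast genes had small log2 fold changes, and the sign of their median depended on the mice and the fit. Of 15 genes, 12 were negative, with a median of -0.089 that went from -0.25 without WT mouse 2 to 0.016 without WT mouse 4 when a mouse was left out, and was 0.055 without WT mice 3 and 4 and 0.011 with the muscle genes as a covariate. None had an unadjusted p under 0.05. *Mmp9*, a matrix protease of osteoclasts, had -0.21 (95% interval -0.44 to 0.019), and *Ctsk*, the collagen-degrading protease, had -0.016 (95% interval -0.76 to 0.73). *Ostm1* had -0.092, *Oscar* -0.43, *Calcr*, the calcitonin receptor, 0.50 and *Car2*, carbonic anhydrase, 0.10. The 5 regulators of osteoclast formation had a median of 0.045, which went from -0.048 without Jrt;Sost-ko mouse 2 to 0.22 without WT mouse 4. Among them *Tnfrsf11b*, the decoy receptor osteoprotegerin, had 0.43 (95% interval -0.14 to 1.01). The cytokines *Il34* and *Csf1* had 0.25 and 0.045.

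Genes that Wnt signalling is known to induce had a median log2 fold change of 0.19, with 15 of 18 tested genes positive. Of these 3 had an unadjusted p under 0.05, beside 3.89% of all genes tested, and none passed the adjusted test. The median went from 0.090 without Jrt;Sost-ko mouse 3 to 0.37 without WT mouse 4 and was 0.35 with the muscle genes as a covariate. *Dkk1*, a secreted Wnt antagonist that is itself a Wnt target, was at 24.4, 32.6, 25.2 and 24.1 CPM in Jrt;Sost-ko mice and 14.8, 9.57, 15.5 and 26.8 CPM in WT mice. WT mouse 4 alone reached the Jrt;Sost-ko range, and the log2 fold change was 0.67 (standard error 0.283). *Myc*, a growth regulator, had 0.34, *Tcf7*, a transcription factor of the pathway, 0.34, and *Wisp1*, a matricellular protein, 0.49. *Axin2*, the feedback inhibitor commonly read as a Wnt target, was at 6.79, 5.86, 9.199 and 3.85 CPM against 3.84, 4.17, 6.19 and 8.502 CPM. Its groups overlapped almost fully, with a log2 fold change of 0.18 (95% interval -0.57 to 0.94).

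Among 11 Wnt antagonists 8 were positive, with a median of 0.12. This median went from -0.033 without WT mouse 1 to 0.61 without WT mouse 4, so that its sign depended on the mice taken, and it was 0.47 with the muscle genes as a covariate. *Sfrp2*, a secreted Frizzled-related inhibitor, was at 5.5, 5.89, 3.48 and 1.47 CPM against 1.47, 1.298, 2.41 and 2.44 CPM (log2 fold change 1.10, exact two-sided permutation p = 0.143). *Sfrp4* had 0.33 and *Sfrp5* 0.57. Of 16 Wnt receptor genes tested, 9 were positive with a median of 0.055 that went from -0.066 without WT mouse 2 to 0.20 without WT mouse 4. The sclerostin partners *Lrp5* and *Lrp6* had log2 fold changes of 0.080 (95% interval -0.20 to 0.36) and 0.10 (95% interval -0.19 to 0.39). *Ryk* and *Ror2*, non-canonical Wnt receptors, had 0.21 and 0.24, and the Frizzled gene *Fzd9* had -0.29. Without WT mice 3 and 4 the medians were 0.44 for targets, 0.97 for antagonists and 0.46 for receptors. The TGF-beta list, 15 genes of the other main growth factor pathway of bone, had a median of 0.078, which went from 0.018 without WT mouse 2 to 0.16 without Jrt;Sost-ko mouse 4. In it *Ltbp1*, which holds latent TGF-beta in the matrix, had 0.19, *Skil* 0.22, *Tgfb1* 0.12 and *Ctgf* -0.56.

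Most genes of protein folding and synthesis had small positive log2 fold changes. Of 25 endoplasmic reticulum stress genes 23 were positive (median 0.16), and leaving out a mouse gave medians from 0.085 without Jrt;Sost-ko mouse 2 to 0.19 without Jrt;Sost-ko mouse 3. *Hsp90b1*, an endoplasmic reticulum chaperone, was at 662, 765, 613 and 668 CPM in Jrt;Sost-ko mice and 575, 579, 612 and 555 CPM in WT mice. The groups were apart by a narrow margin, as in 1.29% of all genes tested with Jrt;Sost-ko higher. The log2 fold change of *Hsp90b1* was 0.23 (standard error 0.0882). *Pdia4*, a protein disulphide isomerase, had 0.28, *Syvn1*, a ubiquitin ligase of misfolded proteins, 0.13, and *Hspa5*, the chaperone BiP, 0.23. Of 29 ribosome biogenesis genes 27 were positive (median 0.11), 5 at an unadjusted p under 0.05, beside 3.89% of all genes tested. Among the 5 were *Wdr43* (0.19), *Bop1* (0.16), *Rrp9* (0.22) and *Ddx21* (0.16). Of 20 tRNA synthetase genes 16 were positive (median 0.11), and *Iars*, *Tars*, *Yars* and *Gars* had an unadjusted p under 0.05 with log2 fold changes of 0.22, 0.23, 0.17 and 0.14. In each of these 4 genes every Jrt;Sost-ko mouse was above every WT mouse, as in 1.29% of all genes tested. These 4 genes were picked by their small p. Whether a list holds more such genes than the whole set was not tested. Leaving out a mouse gave medians from 0.070 without WT mouse 4 to 0.13 without Jrt;Sost-ko mouse 3 for ribosome biogenesis and from 0.060 without WT mouse 4 to 0.13 without Jrt;Sost-ko mouse 3 for tRNA synthetase genes. Without WT mice 3 and 4 the medians were 0.056 for ribosome biogenesis, 0.053 for tRNA synthetase and 0.16 for endoplasmic reticulum stress genes. No gene of the 3 lists passed the adjusted test.

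**Figure D2:**
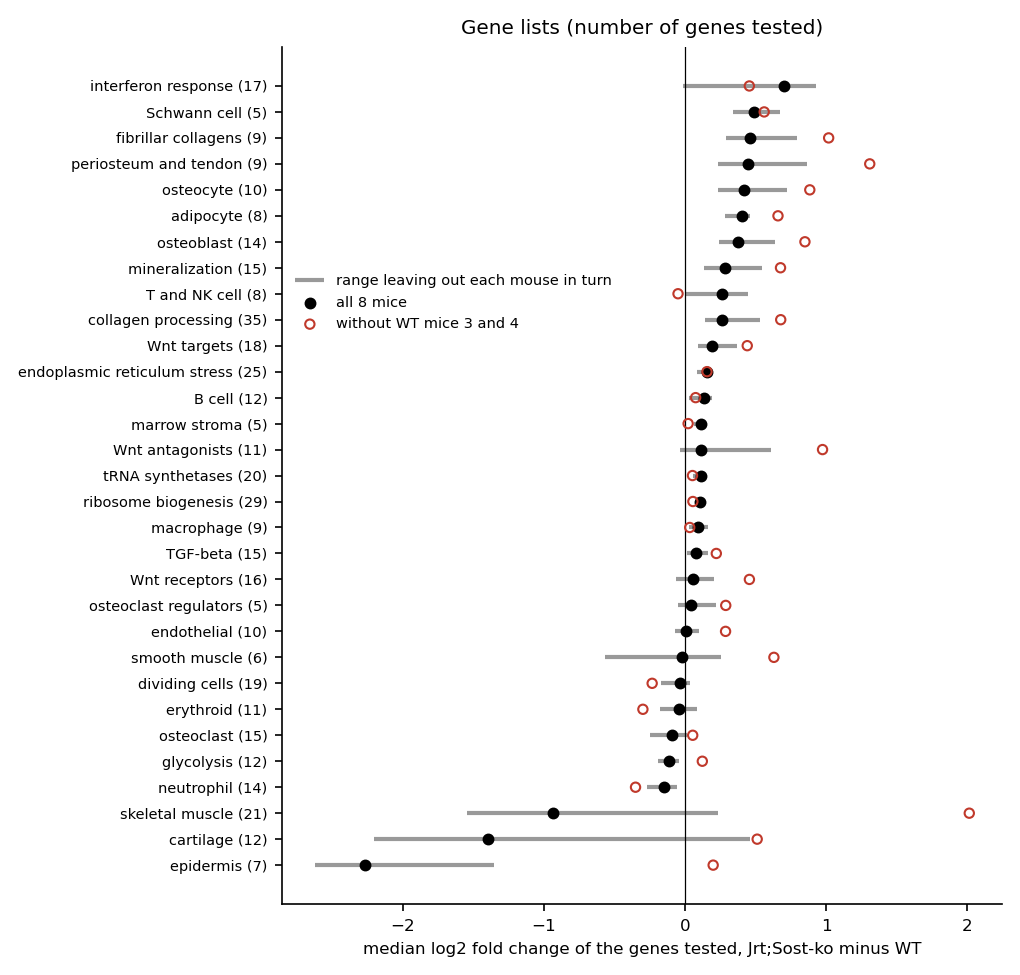
Median log2 fold change of the tested genes of 31 lists (points), the range when each mouse was left out in turn (lines) and the value without WT mice 3 and 4 (open circles). The bone-forming lists lie above 0 and move up without WT mice 3 and 4, while skeletal muscle, cartilage and epidermis lists lie below 0 with all 8 mice and above 0 without both.

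The lowest list medians belonged to tissues around the bone shaft. All 21 tested muscle genes were negative with a median of -0.93, and leaving out single mice gave medians from -1.54 to 0.24. Without WT mice 3 and 4 the muscle median was 2.01. *Acta1*, skeletal muscle actin, was at 1135, 216, 1334 and 1.89 CPM in Jrt;Sost-ko mice and 272, 26.8, 1362 and 3792 CPM in WT mice, and *Ckm*, muscle creatine kinase, at 983, 255, 1254 and 0.946 against 241, 18.1, 1252 and 2726. Levels within each group differed by over 100-fold. *Tnnt1*, a slow-muscle troponin, was the exception in its spread, with 5.79, 4.82, 5.43 and 6.001 CPM against 6.99, 7.48, 9.56 and 8.86 CPM. Its log2 fold change was -0.57 and its groups did not overlap, as in 1.11% of all genes tested. Every such gene has the smallest possible exact two-sided permutation p, 0.0286. *Tnnt1* was picked by its small p among the muscle genes, so that this p is no separate support. All 12 cartilage genes were negative (median -1.39, or 0.46 without WT mouse 4 alone). *Col2a1*, the cartilage collagen, was at 485, 58.4, 90.3 and 203 CPM against 263, 39.5, 134 and 1529 CPM, with WT mouse 4 far above the rest, and the cartilage median was 0.51 without WT mice 3 and 4. The 9 periosteum and tendon genes were all positive (median 0.45, from 0.24 without WT mouse 2 to 0.86 without WT mouse 4), with log2 fold changes of 1.03 for *Kera*, 0.83 for *Tnmd* and 0.39 for *Postn* and none at an unadjusted p under 0.05.

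Of 17 epidermis genes 7 had enough counts to be tested. All 7 were negative (median -2.26) and 5 had an unadjusted p under 0.05, beside 3.89% of all genes tested. *Krt10*, a keratin of differentiated epidermis, was at 1.68, 1.49, 1.498 and 1.63 CPM in Jrt;Sost-ko mice and 1.35, 1.401, 48.8 and 208 CPM in WT mice. Without WT mice 3 and 4 its log2 fold change was 0.20 in place of -5.37. Of the 18 DESeq2 calls, *Krt77*, *Lce1m*, *Serpina3j*, *Krt1* and *Col17a1*, named after their values were seen, were 5 of the 6 lower genes, the other being *Sost*. *Krt77*, *Lce1m* and *Serpina3j* had counts in 2 WT mice and 0 in every Jrt;Sost-ko mouse. *Col17a1*, an epidermal anchoring collagen, was at 0.374, 1.91, 4.48 and 21.9 CPM in the WT mice and at 0.5, 0.327, 0.214 and 0.196 CPM in the Jrt;Sost-ko mice. WT mouse 2 held *Col17a1* though its *Krt14* was at 0 CPM, and Jrt;Sost-het mice were at 1.55, 0.237, 1.69 and 1.16 CPM. Unlike *Krt10*, *Col17a1* kept its sign in the alternatives, with log2 fold changes from -4.93 to -1.87.

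The erythroid and neutrophil lists, from marrow, had medians nearer to 0 with all mice taken. The 11 erythroid genes had a median of -0.043 and the 14 neutrophil genes -0.15, of which 13 were negative. Leaving out a mouse gave medians from -0.18 without WT mouse 4 to 0.084 without WT mouse 1 for erythroid and from -0.27 without WT mouse 4 to -0.057 without Jrt;Sost-ko mouse 3 for neutrophil genes. Without WT mice 3 and 4 the medians were -0.30 for erythroid and -0.35 for neutrophil genes. *Hba-a1*, alpha-globin, was at 4226, 4571, 3261 and 4999 CPM against 6097, 5453, 4220.3 and 3387 CPM, and *S100a8*, a neutrophil calcium-binding protein, at 3778, 4107, 3036 and 4537 against 4839, 5838, 4344 and 3077. Both ranges overlapped. WT mouse 2, with the lowest osteoblast sum, had the highest neutrophil sum of the WT mice.

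**Figure D3:**
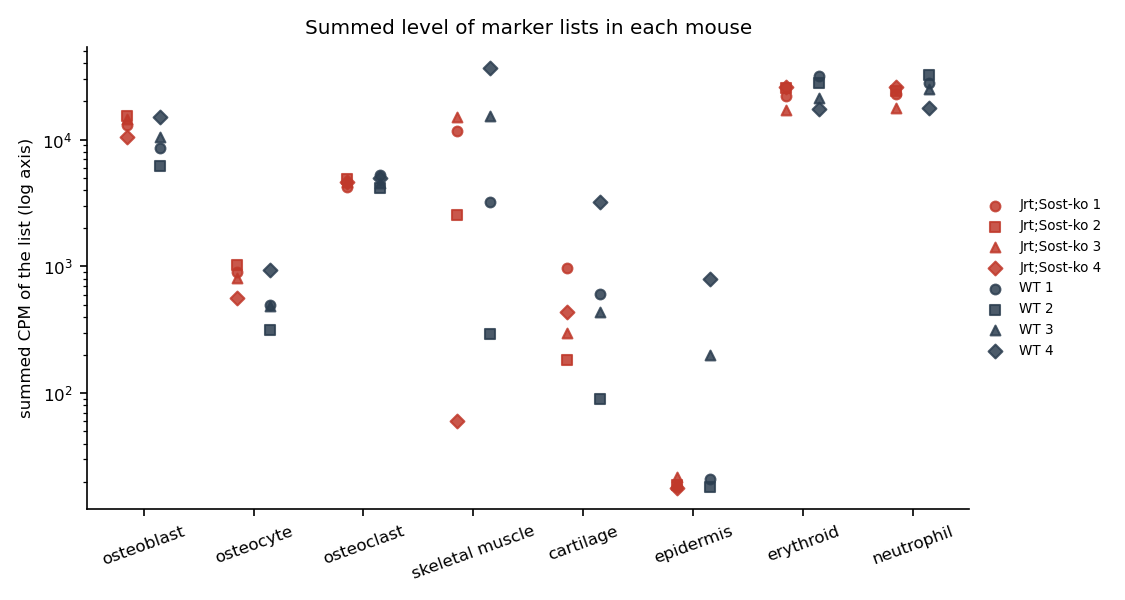
Summed CPM of 8 marker lists in each of the 8 mice (log axis; colours mark groups and symbols mark mice). Epidermis genes exceed 100 CPM in WT mice 3 and 4 alone, and skeletal muscle genes spread widely in both groups.

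Besides *Sost*, the genes with the smallest p are given as values without a call, except where DESeq2 is named. Genes picked by a small p are likely to have groups without overlap. This held for 1.29% of all genes tested with Jrt;Sost-ko higher and for 1.11% with Jrt;Sost-ko lower. *Gm37261* (ENSMUSG00000103527), an unclassified transcript at chr3:51672801-51673901 that lies inside *Mgst2* on the same strand and shares 0 exon bases with it, was next after *Sost*. It was at 3.75, 3.21, 2.41 and 2.77 CPM in Jrt;Sost-ko mice and 0.225, 0.376, 0.315 and 0.0831 CPM in WT mice, with a log2 fold change of 3.60 (standard error 0.3799, edgeR adjusted p = 0.0748). DESeq2 called it (log2 fold change 3.62, DESeq2 adjusted p = 7.90e-20). *Mgst2*, a microsomal glutathione S-transferase, was at 26.1, 23.6, 20.3 and 25.3 CPM against 17.1, 16.6, 14.7 and 12.4 CPM (log2 fold change 0.66). *Gm38357*, an unclassified transcript inside *Noct* at chr3:51231917-51234380, had 1.25, 1.84, 0.802 and 0.652 against 0.1497, 0.239, 0.2699 and 0.0831 CPM (log2 fold change 2.60). DESeq2 also called *Mgst2* and *Gm38357* (DESeq2 adjusted p = 0.00459 and 0.00149). In none of these genes did the groups overlap. Among Jrt;Sost-het mice, mouse 2 lay within or above the Jrt;Sost-ko range at all 3 genes, with 3.42, 31.6 and 1.25 CPM for *Gm37261*, *Mgst2* and *Gm38357*, and the other 3 mice lay at or near the WT range. Both *Gm* transcripts were named after their values were seen.

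On chromosome 19, *Sfxn2*, a mitochondrial sideroflexin, was at 18.8, 13.03, 12.9 and 13.5 CPM in Jrt;Sost-ko mice and 7.21, 7.35, 6.55 and 7.73 CPM in WT mice, with a log2 fold change of 1.02 (standard error 0.144, edgeR adjusted p = 0.458). *Tmem180*, a membrane protein gene close by, was at 21.2, 16.4, 13.4 and 14.97 against 11.1, 10.4, 10.5 and 9.61 CPM (log2 fold change 0.67). The groups were apart for both, and Jrt;Sost-het mouse 4 stood above the other Jrt;Sost-het mice at both, with 12.6 and 13.5 CPM. *Scd1* and *Scd2*, stearoyl-CoA desaturases of fatty acid synthesis, had log2 fold changes of 0.70 and 0.44 without overlap. DESeq2 called *Sfxn2*, *Tmem180* and *Scd1* (DESeq2 adjusted p = 2.15e-07, 0.0346 and 0.0295).

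By position, 20 of 317 tested genes within 10 Mb of *Sost*, *Sost* itself left out, had an unadjusted p under 0.05 (6.31%), beside 3.89% of all genes and 59 of 1373 (4.30%) on chromosome 11. Among them were *Ikzf3* (0.53), a lymphoid transcription factor, *Abi3* (0.32), *Med1* (0.21), a Mediator subunit, and *Cd300lg* (-0.39), an endothelial receptor. The epidermis gene *Krt10*, at chr11:99385254-99389364, was also counted among the 20 and the 59. Its log2 fold change was -5.37 with all mice taken and 0.20 without WT mice 3 and 4, which held epidermal transcripts. How many of the other genes near *Sost* depend on these mice was not tested. *Nags*, N-acetylglutamate synthase, had -1.89 with overlapping groups and few counts. These were 4, 23, 15 and 9 in Jrt;Sost-ko mice and 80, 45, 72 and 22 in WT mice. *Abi3* was at 23.4, 24.2, 22.7 and 23.2 CPM in Jrt;Sost-ko mice and 18.9, 19.2, 18.6 and 18.4 CPM in WT mice, and DESeq2 called it and *Ikzf3* (DESeq2 adjusted p = 0.00592 and 0.00297). In a window of chromosome 19 from 44 to 48 Mb 10 of 63 genes (15.9%), and in a window of chromosome 3 from 51 to 52 Mb 4 of 14 genes (28.6%), had an unadjusted p under 0.05. *Col17a1*, at chr19:47646344-47692094, was among the 10 genes on chromosome 19. Both windows were chosen after the values were seen, and neighbouring genes are not independent.

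**Figure D4:**
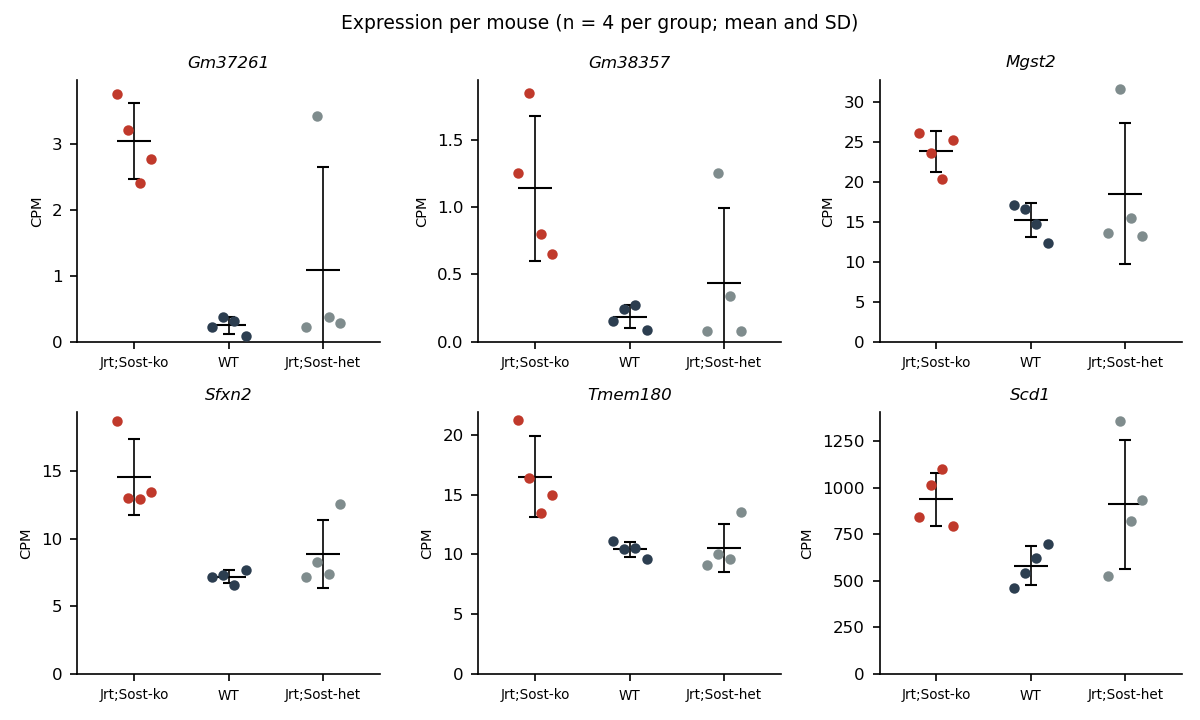
CPM of 6 genes on chromosomes 3 and 19 in each Jrt;Sost-ko, WT and Jrt;Sost-het mouse, with the group mean and SD (n = 4 per group, linear axes from 0). Every Jrt;Sost-ko mouse is above every WT mouse, and a single Jrt;Sost-het mouse stands above the other 3 at *Gm37261*, *Gm38357*, *Mgst2*, *Sfxn2* and *Tmem180*.

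Among phospholipases and lipid genes, *Pla2g5*, a secreted phospholipase, was at 25.5, 27.1, 22.5 and 20.7 CPM in Jrt;Sost-ko mice and 8.96, 9.396, 14.3 and 15.2 CPM in WT mice. The groups did not overlap, and the log2 fold change was 1.01 (standard error 0.197, edgeR adjusted p = 0.9996, DESeq2 adjusted p = 0.00157). Jrt;Sost-het mice were at 17.2, 18.1, 14.9 and 13.7 CPM. *Pla1a*, another phospholipase, had 4.18, 4.997, 7.46 and 5.87 against 12.6, 4.48, 10.5 and 7.56 CPM and a log2 fold change of -0.64 (95% interval -1.36 to 0.082). *Tex15*, a germ-cell gene, had 14.9, 15.9, 14.3 and 14.7 against 21.7, 24.6, 19.98 and 15.9 CPM and a log2 fold change of -0.45 (exact two-sided permutation p = 0.0571). The lipase *Pnpla3* had 0.91 and was called by DESeq2 (DESeq2 adjusted p = 0.0367).

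Of the other genes with small p, *Irg1*, which makes itaconate in activated macrophages, was at 6.71, 6.93, 1.36 and 1.47 CPM in Jrt;Sost-ko mice and 0.798, 0.444, 0.225 and 0.194 CPM in WT mice. Its log2 fold change of 3.31 (standard error 0.727) came with Jrt;Sost-ko mice 1 and 2 well above mice 3 and 4, and DESeq2 called it (DESeq2 adjusted p = 0.000668). *Srm*, spermidine synthase, had 0.34, and *Hmga2*, a chromatin protein of growing tissue, 0.88. The receptors *Grm4*, *Grik2* and *Drd4* had 1.42, 1.20 and 1.59, all at mean levels under 2 CPM. *Lypd6*, a membrane-anchored protein linked to Wnt receptors, had -1.05, *Dlec1* -1.06, *Stfa2l1*, a stefin gene in a family of close copies, -0.55, and the immunoglobulin segment *Igkv4-91* 1.10. In all of these the groups did not overlap, and the edgeR adjusted p was 0.9996. They were picked by their small p. Of all genes tested, 1.29% did not overlap with Jrt;Sost-ko higher and 1.11% with Jrt;Sost-ko lower. *Hmga2*, *Lypd6*, *Dlec1* and *Igkv4-91* were also at mean levels under 2 CPM in both groups.

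**Figure D5:**
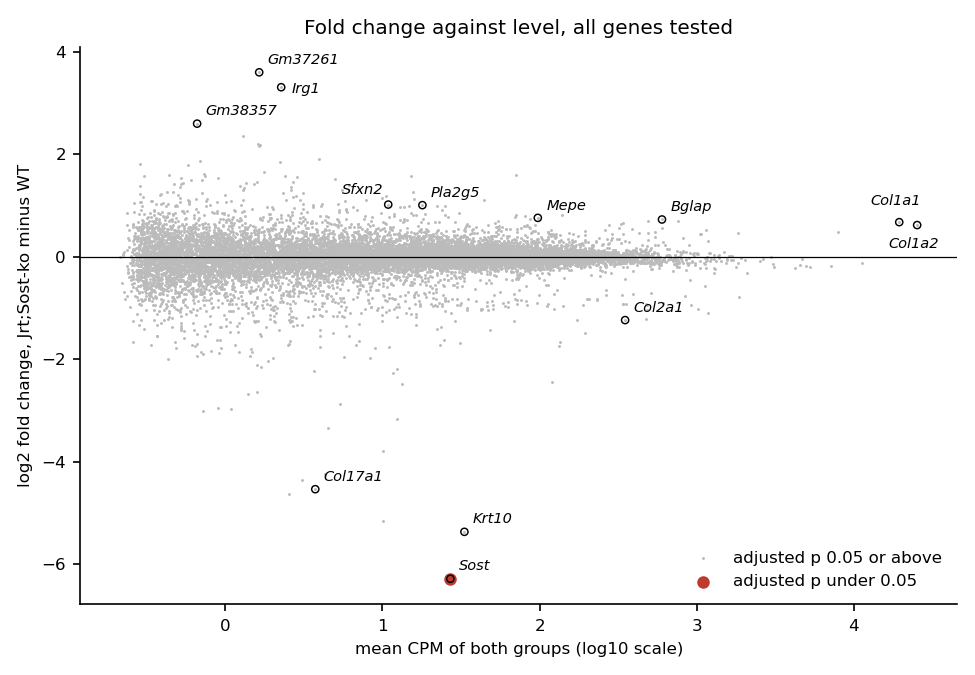
Log2 fold change (Jrt;Sost-ko minus WT) against the mean CPM of both groups (log10 scale) for 17155 genes. *Sost*, the filled point, is the gene with an edgeR adjusted p under 0.05; open circles mark other genes named here.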

How the data were processed

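RNA from tibia shafts was sequenced, 1 library per mouse. STAR was the aligner and GRCm38 the genome, and the authors deposited raw counts per Ensembl gene, without normalization; the counting tool, its strand setting and the annotation release are not given in the sources used here, so that genes overlapping on opposite strands may share reads. The authors' tables of comparisons hold fold changes and p-values and were not used. Genes passing filterByExpr (minimum count 10) were fitted on the 8 mice with edgeR 4.0.16 (TMM, glmQLFit, glmQLFTest, Benjamini–Hochberg threshold 0.05) in R 4.3.3. CPM was scaled over all 12 libraries, with a prior count of 2 for log2 values. Positions come from GENCODE M21, which held 46574 of 47069 identifiers. Promoter sequences come from RefSeq, GRCm38.p6. The code was tested on simulated data.

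Alternatives were DESeq2 1.42.0 and its size factors, upper-quartile scaling, TMM without muscle, epidermis, erythroid and neutrophil genes, limma-voom (limma 3.58.1), robust estimation, no filter on counts, a minimum of 10 in each of the 8 mice, a fit of all 12 mice, muscle genes or 1 surrogate variable (sva 3.50.0) as a covariate, and leaving out WT mice 3 and 4 or each mouse in turn. Named genes are those the study discusses, the 20 named genes of smallest p, and from each of 31 lists up to 4 members of smallest p, with the most abundant member for lists of other cell types; *Acta1*, *Ckm*, *Krt14*, *Krt5*, *Runx2*, *Alpl*, *Phex*, *Ctsk*, *Axin2*, *Scd1*, *Scd2*, *Med1*, *Nags*, *Col17a1* and *S100a8* were added after their values were seen. All genes this rule gives entered the alternatives, and not all are named in the text. The lists and the groups compared were chosen with earlier results of these data known. Mouse numbers follow label order within a group and pair no animals. Pairs of mice within Jrt;Sost-ko or WT differed by a chi-square per degree of freedom of 18.1 to 160. Within these groups no library was thus a copy of another. Pairs across groups and pairs with a Jrt;Sost-het mouse were not compared.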

Additional observations from a re-analysis of the deposited data

Results flagged for a closer look

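Within the groups of 4 mice, 30 of 402 combinations of group and gene or gene list had a single mouse far from the other 3, by Dixon's gap ratio above its 95% critical value, where chance gives about 5% or 20.1. The gap ratio is the distance of the outlying mouse to its nearest neighbour over the whole range of the group. Jrt;Sost-ko mouse 1 was the highest for *Sfxn2* (gap ratio 0.904), *Cd4* (gap ratio 0.904), *Cnn1* (gap ratio 0.899), *Cxcl10* (gap ratio 0.954), *Isg15* (gap ratio 0.836) and *Ifi44* (gap ratio 0.968). Jrt;Sost-ko mouse 2 was the highest for *Dkk1* (gap ratio 0.869) and *Fabp4* (gap ratio 0.916). Jrt;Sost-ko mouse 4 was the lowest for *Col11a1* (gap ratio 0.832) and *Pdgfrb* (gap ratio 0.87). Jrt;Sost-ko mouse 3 was the highest for *Krtdap* (gap ratio 0.858), *Sbsn* (gap ratio 0.843), *Tek* (gap ratio 0.952) and *Krt5* (gap ratio 0.888). Jrt;Sost-ko mouse 4 was the highest for *Ccnb2* (gap ratio 0.888), *Aurkb* (gap ratio 0.85) and *Mcm7* (gap ratio 0.863). Jrt;Sost-ko mouse 3 was the lowest for *Wdr43* (gap ratio 0.837). WT mouse 2 was the highest for *Ikzf3* (gap ratio 0.907), *Cd4* (gap ratio 0.877) and *Cxcl10* (gap ratio 0.931). WT mouse 1 was the highest for *Igkv4-91* (gap ratio 0.968). WT mouse 2 was the lowest for *Csf1r* (gap ratio 0.889). WT mouse 4 was the highest for *Matn1* (gap ratio 0.911), *Lect1* (gap ratio 0.901), *Col9a1* (gap ratio 0.859), *Col2a1* (gap ratio 0.85), *Krt14* (gap ratio 0.868) and *Krt5* (gap ratio 0.835). WT mouse 4 was the lowest for *Elane* (gap ratio 0.873). In Jrt;Sost-ko mouse 1 *Cxcl10* was at 18.9 CPM beside at most 3.85 CPM in the other Jrt;Sost-ko mice, and *Ifi44* at 20.7 CPM beside at most 3.98. In WT mouse 4 *Col2a1* was at 1529 CPM beside at most 263 CPM in the other WT mice, and *Krt5* at 109 CPM beside at most 18.0.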

How the results depend on the processing

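Over 20 alternatives, of which 8 left out a mouse, 3236 of 3344 values of 168 tested genes kept their direction and side of the threshold, 5 were no longer past it, 16 passed it and 87 changed sign. edgeR called 1 gene with all 8 mice, DESeq2 18, limma-voom with sample quality weights 2, no filter 2, 1 surrogate variable 2, and leaving out a mouse 0 to 2. The second gene of the counts of 2 was *Gm37261*. *Sost* had log2 fold changes from -6.82 to -6.07 when a mouse was left out, and lost its call in 5 of these 8 fits. The counts given next do not all rest on the same number of genes. DESeq2 and the fit without a filter took in more genes than the 17155 of the main fit. A higher count in these therefore need not mean a higher share of the genes tested. The number of genes with an unadjusted p under 0.05 went from 668 to 1187 without a filter, 1921 with the muscle genes as a covariate, 2163 with 1 surrogate variable, 2224 without WT mice 3 and 4, 1035 with DESeq2 and 1540 with limma-voom. Without WT mice 3 and 4 the list medians were 0.85 for osteoblast, 0.88 for osteocyte, 1.02 for fibrillar collagen and 0.68 for collagen processing genes, and leaving out a mouse gave 0.24 to 0.64, 0.23 to 0.72, 0.29 to 0.79 and 0.14 to 0.53. The interferon response median went from -0.015 to 0.93, the lowest without Jrt;Sost-ko mouse 1. Without WT mice 3 and 4 the log2 fold change changed sign for *Oscar* 0.054, *Car2* -0.15, *Csf1r* 0.040, *Fzd9* 0.58, *Lect1* 0.52, *Col9a1* 0.36, *Col2a1* 0.48, *Tnni1* 0.64, *Myh2* 1.74, *Mb* 1.47, *Myh4* 2.20, *Krt10* 0.20, *Lor* 0.95, *Epb42* -0.13, *Klrb1c* -0.026, *Nkg7* -0.072, *Sox17* 0.24, *Tek* 0.12, *Egfl7* 0.19, *Pecam1* 0.13, *Rgs5* 0.43, *Acta2* 0.63, *Cxcl12* -0.080, *Gapdh* 0.13, *Acta1* 2.18, *Ckm* 2.28 and *Ctsk* 0.43. With the muscle genes as a covariate the log2 fold change changed sign for *Car2* -0.0055, *Myh4* 0.37, *Nkg7* -0.032, *Pecam1* 0.046, *Rgs5* 0.049, *Acta2* 0.20, *Cxcl12* -0.022, *Acta1* 0.070, *Ckm* 0.35 and *Ctsk* 0.22. With 1 surrogate variable the log2 fold change changed sign for *Fzd9* 0.0012, *Myh4* 0.13, *Nkg7* -0.020, *Pecam1* 0.036, *Rgs5* 0.016, *Acta2* 0.16, *Cxcl12* -0.0092, *Ckm* 0.19 and *Ctsk* 0.20. With limma-voom the log2 fold change changed sign for *Pecam1* 0.030 and *Ctsk* 0.060. Leaving out a mouse in turn changed the sign for *Lrp5* -0.0091 to 0.15, *Car2* -0.052 to 0.22, *Csf1* -0.071 to 0.11, *Fzd9* -0.61 to 0.066, *Lect1* -2.65 to 0.44, *Col9a1* -2.64 to 0.48, *Col2a1* -2.08 to 0.53, *Myh4* -1.50 to 0.63, *Epb42* -0.013 to 0.27, *Hbb-bs* -0.26 to 0.0081, *Cd8a* -0.089 to 0.79, *Nkg7* -0.040 to 0.13, *Lyz2* -0.21 to 0.026, *Egfl7* -0.23 to 0.045, *Pecam1* -0.068 to 0.047, *Cnn1* -0.59 to 0.90, *Rgs5* -0.39 to 0.048, *Acta2* -0.57 to 0.26, *Lepr* -0.014 to 0.17, *Cxcl12* -0.048 to 0.12, *Cdk1* -0.21 to 0.0062, *Acta1* -1.60 to 0.28, *Ckm* -1.36 to 0.31, *Ctsk* -0.25 to 0.26 and *Axin2* -0.047 to 0.45. No gene among these passed the test, and the cause of these changes was not tested. Depth limits most the genes with few counts, such as *Gm38357* in WT mice.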

Other observations

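Interferon response genes were all positive in Jrt;Sost-ko mice, 17 of 17, with a median log2 fold change of 0.70, but the value rested on a single mouse. Without Jrt;Sost-ko mouse 1 the median was -0.015. *Cxcl10*, a chemokine, was at 18.9, 3.12, 3.85 and 3.69 CPM in Jrt;Sost-ko mice and 1.95, 4.24, 2.09 and 2.105 CPM in WT mice, and *Isg15*, a ubiquitin-like protein, at 171, 70.01, 50.2 and 68.5 against 57.3, 63.3, 52.1 and 33.2. The summed list was 1761, 717, 624 and 754 CPM against 759.8, 824, 658 and 477 CPM.

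B cell genes had a median of 0.14 with 11 of 12 positive, and leaving out a mouse gave medians from 0.027 without Jrt;Sost-ko mouse 3 to 0.19 without WT mouse 2. *Cd22* and *Ms4a1*, surface proteins of B cells, had log2 fold changes of 0.31 and 0.31 with an unadjusted p under 0.05 and no adjusted p under 0.05. Adipocyte genes were all positive (8 of 8, median 0.40). *Pparg*, the regulator of fat cell formation, had 0.30, *Cidec* 0.52, *Cfd*, adipsin, 0.46 and *Plin1*, perilipin, 0.34. The other lists had medians of 0.27 (T and NK cell), 0.092 (macrophage), 0.0051 (endothelial), -0.019 (smooth muscle), 0.12 (marrow stroma), 0.49 (Schwann cell), -0.032 (dividing cells) and -0.12 (glycolysis). The T and NK cell median rested on a single mouse: leaving out Jrt;Sost-ko mouse 1 gave -0.0017. It was -0.049 without WT mice 3 and 4. Leaving out a mouse also changed the sign of the endothelial median (-0.070 without WT mouse 2 to 0.10 without WT mouse 4), the smooth muscle median (-0.57 without Jrt;Sost-ko mouse 1 to 0.25 without WT mouse 4) and the dividing cell median (-0.17 without Jrt;Sost-ko mouse 4 to 0.034 without WT mouse 2), and took the macrophage median from 0.027 without WT mouse 4 to 0.16 without WT mouse 1, the marrow stroma median from 0.061 without WT mouse 4 to 0.15 without WT mouse 1 and the glycolysis median from -0.19 without Jrt;Sost-ko mouse 1 to -0.043 without WT mouse 4. Without WT mice 3 and 4 the glycolysis and smooth muscle medians changed sign, to 0.12 and 0.63. In that fit the medians were 0.29 for endothelial, -0.23 for dividing cell, 0.034 for macrophage and 0.023 for marrow stroma genes. *Ebf3*, a transcription factor of marrow stroma, had 0.27.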
